A study of Arabidopsis thaliana with 9 samples.

Results

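Expansins and the endoglucanases of glycoside hydrolase family 9 (GH9) act on the growing plant cell wall. The members described here are the 33 genes whose probe set carries 1 gene symbol beginning with EXPA, EXPB, EXLA, EXLB or GH9 in the annotation of the Affymetrix platform, out of 22746 probe sets tested. They comprise 18 expansins (10 alpha-expansins EXPA, 4 beta-expansins EXPB, 3 expansin-like A genes EXLA and the expansin-like B gene EXLB1) and 15 endoglucanases (2 of class GH9A, 10 of class GH9B and 3 of class GH9C). Each was represented by 1 probe set, and all 33 were found by gene number in the reference gene table of assembly TAIR10.1. Another 4 probe sets match several genes of these families at once and were not used.

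Expansins are secreted proteins that loosen the contacts between cellulose and the other wall polymers at acid pH without cutting them, which lets turgor extend the wall. The expansin-like proteins share the fold, and no loosening activity is established for them. GH9 enzymes are endo-1,4-beta-glucanases. Class A includes the membrane-anchored KORRIGAN type that works with cellulose synthesis, class B enzymes are secreted, and class C enzymes are secreted and carry an additional carbohydrate-binding domain. In leaves and stems both families are known from expanding organs, and several members are known chiefly from roots, such as the root-hair expansins EXPA7 and EXPA18.

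The 9 arrays came from 3 groups of 3 biological replicates in the Col-0 background, all from the above-ground part of 8-week-old greenhouse plants. They were untransformed wild type, variegated MSH1 RNAi transgenic plants and stunted MSH1 RNAi transgenic plants. MSH1 encodes a nuclear-encoded MutS homologue of mitochondria and plastids. The promoter of the RNAi construct and the number of independent lines are not given in the sources used here, and MSH1 itself was not analysed here, so the suppression was not checked. RNA came from whole shoots, in which fewer cells of a type and less RNA per cell cannot be told apart.

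All values are log2 expression values as deposited, with array medians of 3.37 to 3.43 and replicate arrays of a group correlating at r = 0.985 to 0.995 across probe sets. Of 9 lists of cell type markers, 6 had any gene measured, 11 genes in all, and none of floral organs, xylem or phloem. The leaf marker PSAE-1, a photosystem I subunit, lay between 12.0 and 12.3 on every array, and the pollen markers MGH3 and PLIM2a averaged 2.65 to 2.83, below the array medians. The root marker PYK10, a beta-glucosidase, rose in stunted plants by 1.50 (SE 0.15, limma adjusted p = 0.000875), from 4.01 to 4.45 on wild-type arrays to 5.51 to 5.98. The senescence marker WRKY6 rose there by 1.03 (SE 0.20), while WRKY53 of the same list differed by 0.0094 (adjusted p = 0.978). The trichome gene SIM fell by 0.83 (SE 0.13), a call lost without replicate 3 of every group (adjusted p = 0.0904), while TRY of the same list differed by -0.05 (adjusted p = 0.806). In variegated plants SIM had a change of -0.77 (adjusted p = 0.0516), which passed in several other settings. Between the phenotypes it differed by -0.06 (adjusted p = 0.892). WRKY6 did not pass in stunted plants when replicate 2 of wild type or of stunted plants was left out (adjusted p = 0.056 and 0.0577). The 3 genes of the guard cell list, FMA, SPCH and MUTE, averaged 3.14 to 3.32 on wild-type and 3.23 to 3.30 on stunted arrays. Of these, SPCH and MUTE had means of 3.17 and 2.76 over the 9 arrays, below the array medians. Whether these markers have a part in the changes below was not tested.

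The members split by the brightness of their probe sets. With the median of all probe sets (a mean log2 value of 3.42 over the 9 arrays) as the dividing level, 12 members were brighter and 21 were dim. The mean of a probe set includes the groups that are compared below, for members and for all probe sets alike. The brighter members were EXPA4, EXPA8, EXPA15, EXPA16, EXPA20, EXPB3, EXLA1, EXLB1, GH9B7, GH9B8, GH9B13 and GH9C2. The nearest members to the level were EXPA20 above it at 3.58 and EXPB1 below it at 3.40. The table holds no detection calls, so a dim member cannot be called silent, and brightness also differs between probe sets for reasons other than transcript level. Both GH9A genes, 7 of 10 GH9B genes, 2 of 3 GH9C genes and 3 of 4 EXPB genes were dim. So were the root-hair expansins EXPA7 and EXPA18, which did not exceed 3.24 on any array.

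In stunted plants 8 of the 12 brighter members fell against wild type, and none of the 21 dim members passed. Of the 33 members, 8 fell and none rose (limma adjusted p under 0.05), where 4.75% of all probe sets fell and 4.91% rose. All 8 were brighter members, so 8 of 12 fell, where 8.9% of brighter probe sets did. They were the beta-expansin EXPB3, the alpha-expansins EXPA4 and EXPA16, EXLB1, and the endoglucanases GH9B7, GH9B8, GH9B13 and GH9C2. Of the 12 brighter members 11 had a change below 0, as did 47.6% of brighter probe sets. Their median change was -1.12 on the log2 scale, beside 0.018 for all brighter probe sets. Of the 21 dim members none passed, with changes of -0.25 to 0.12, a median SE of 0.08 and adjusted p from 0.0547 upward, and 0.607% of dim probe sets fell.

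**Figure D1:**
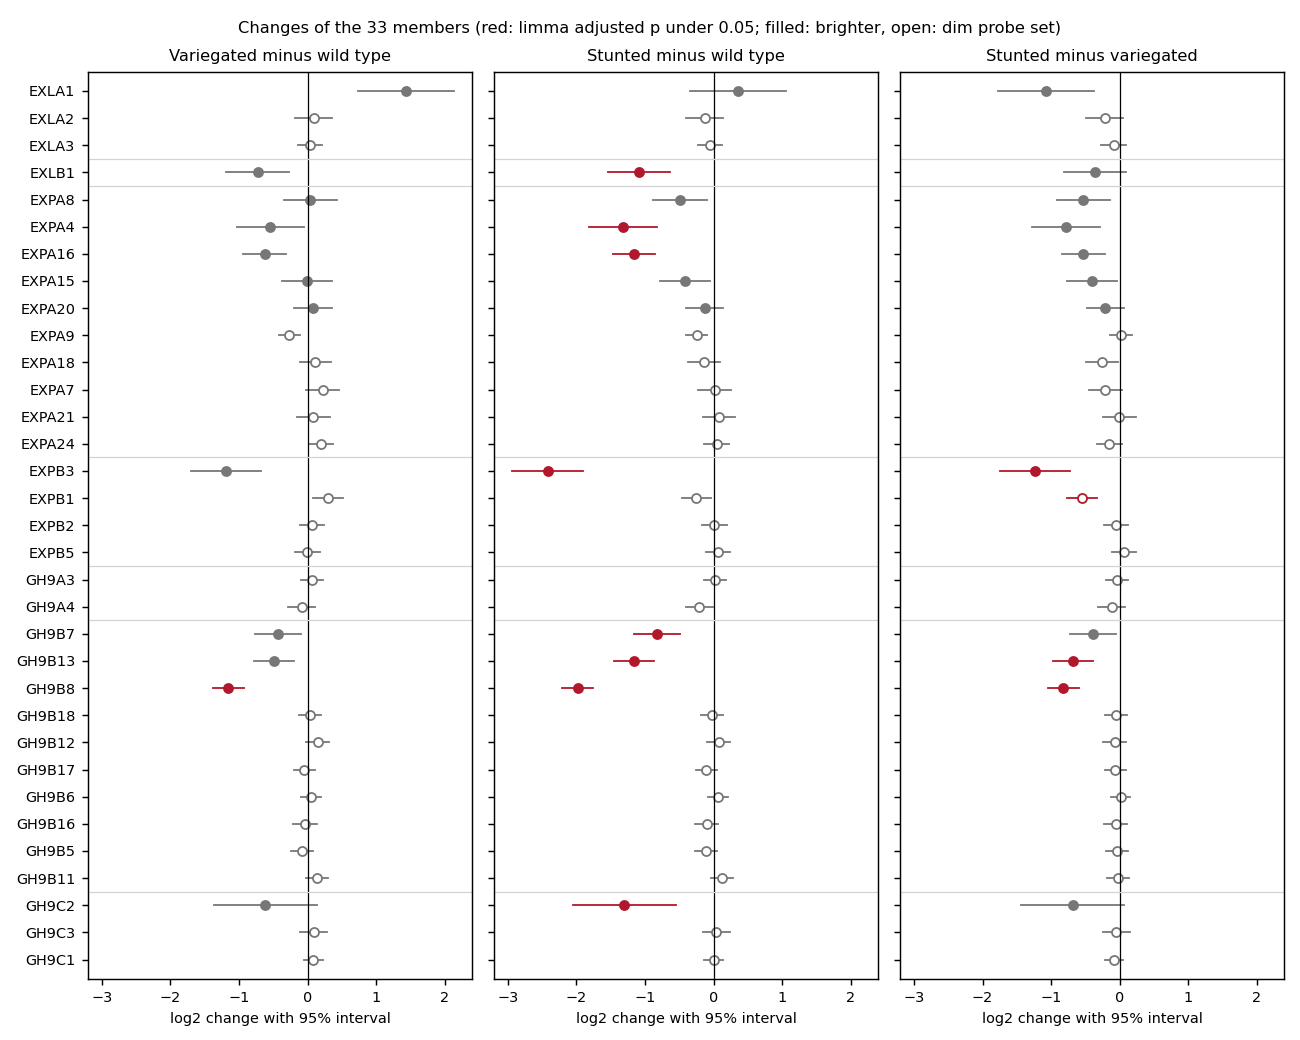
Log2 change with 95% interval of each of the 33 members in the 3 comparisons, grouped by subfamily and ordered by brightness within it (red: limma adjusted p under 0.05, filled: brighter, open: dim probe set). The 8 red points of stunted minus wild type are all filled and lie between -2.42 and -0.83, and the 21 open points lie between -0.25 and 0.12.

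EXPB3 had the lowest change of the 33 members in stunted plants. Its log2 values were 6.76, 6.98 and 6.76 on wild-type replicates 1 to 3, then 5.90, 5.78 and 5.26 on variegated arrays, and 4.90, 4.34 and 4.01 on stunted arrays. The 3 groups did not overlap, with variegated plants between the others. The fall in stunted plants was 2.42 (SE 0.23, 95% interval -2.93 to -1.91), or 5.35-fold. The other 3 beta-expansins were dim, and EXPB2 and EXPB5 differed from wild type by 0.0099 and 0.06 in stunted plants, without passing.

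Among the alpha-expansins, EXPA4 and EXPA16 fell in stunted plants. EXPA4 stood at 6.93, 7.22 and 6.88 on wild-type arrays, 6.77, 6.51 and 6.12 on variegated arrays, and 6.15, 5.54 and 5.36 on stunted arrays. All stunted arrays were below all wild-type arrays, while stunted replicate 1 lay just above variegated replicate 3. It fell by 1.33 (SE 0.22, adjusted p = 0.0063), or 2.51-fold. EXPA16 stood at 6.15, 5.98 and 6.11 on wild-type arrays and at 5.24, 4.93 and 4.60 on stunted arrays. Its 3 variegated arrays carried the identical deposited value of 5.45, as happened for 0.897% of all probe sets in that group. The SD of the group is therefore 0, and the test leans on the spread that limma shares between groups and probe sets. EXPA16 fell by 1.16 (SE 0.14, adjusted p = 0.00157), with no overlap between groups.

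The other 3 brighter alpha-expansins did not pass in stunted plants. EXPA8 had values of 6.69, 6.83 and 6.38 on wild-type arrays and of 5.85, 6.06 and 6.52 on stunted arrays, so that stunted replicate 3 lay among the wild-type values. Its change was -0.49 (95% interval -0.88 to -0.10, adjusted p = 0.122), and it passed without stunted replicate 3, at -0.68 (limma adjusted p = 0.026). EXPA15 had a change of -0.42 (95% interval -0.78 to -0.06, adjusted p = 0.152), and it passed without stunted replicate 1. EXPA20 had a change of -0.13 (95% interval -0.41 to 0.14). The intervals of EXPA8 and EXPA15 lie below 0 and reach falls of 0.88 and 0.78, so a missed threshold does not show that these genes were level.

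The expansin-like genes differed from each other. EXLB1 stood at 4.10, 5.04 and 4.67 on wild-type arrays, 3.98, 3.94 and 3.71 on variegated arrays, and 3.64, 3.44 and 3.46 on stunted arrays. The wild-type arrays were the most scattered, and none overlapped the other groups. It fell in stunted plants by 1.09 (SE 0.20, adjusted p = 0.0107), ending near the dividing level. EXLA1 was the 1 brighter member whose mean was higher in stunted plants than in wild type, at 0.35 (95% interval -0.35 to 1.05, adjusted p = 0.594). Its stunted arrays stood at 5.56, 5.70 and 4.34, so replicate 3 was far below the other 2. Without that array EXLA1 passed at 0.78 (adjusted p = 0.017). EXLA2 and EXLA3 were dim, with changes of -0.13 and -0.06.

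**Figure D2:**
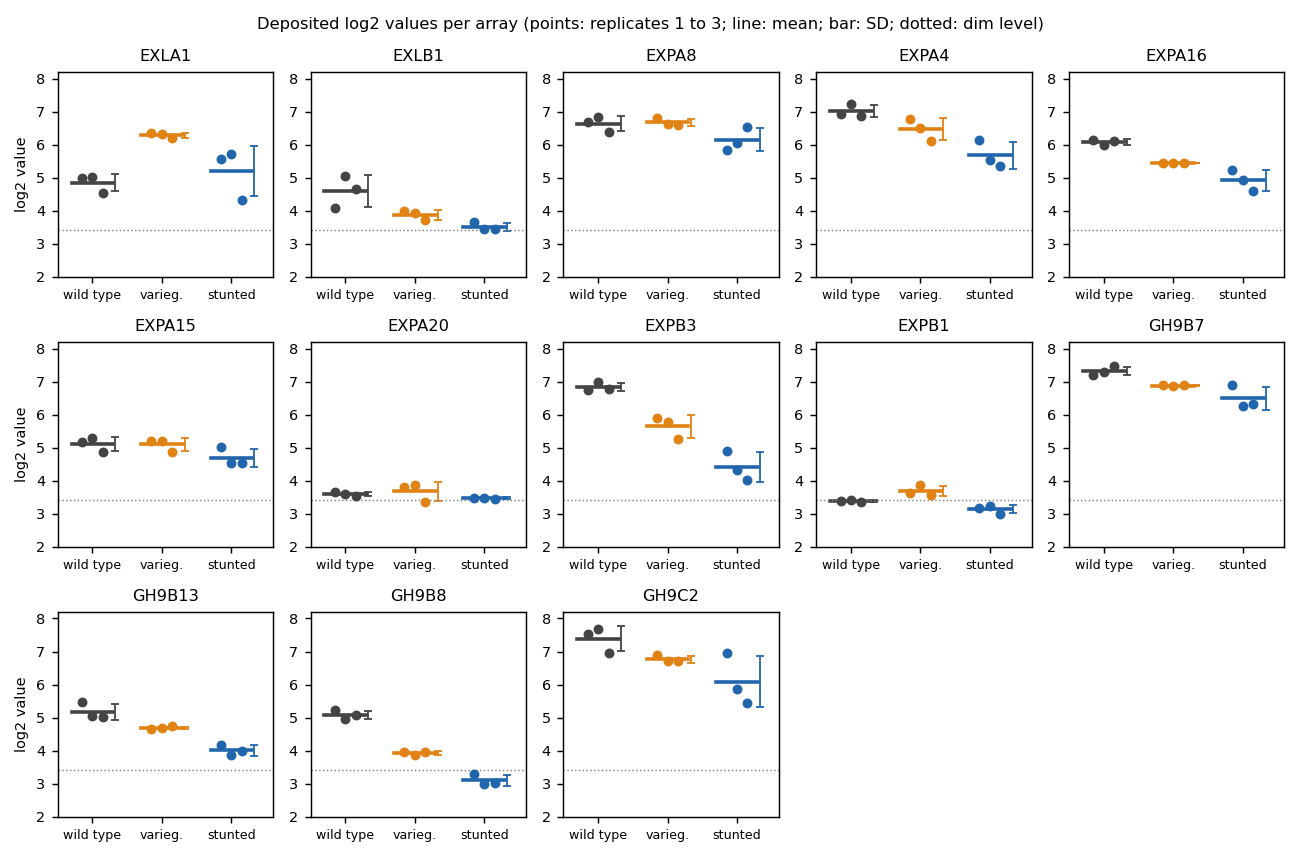
Deposited log2 values of the 12 brighter members and of EXPB1 on each array (points: replicates 1 to 3 from left to right, line: group mean, bar: SD of 3 arrays, dotted line: dividing level of 3.42). EXPA16, EXPB3, EXLB1, GH9B8 and GH9B13 step down from wild type over variegated to stunted without overlap, while EXLA1 is highest in variegated plants, at 6.19 to 6.34.

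All 4 brighter endoglucanases fell in stunted plants. GH9B8, a secreted class B enzyme, stood at 5.22, 4.97 and 5.06 on wild-type arrays, 3.96, 3.87 and 3.96 on variegated arrays, and 3.30, 2.98 and 3.03 on stunted arrays. The groups were far apart relative to their spread, and all stunted arrays lay below the dividing level. It fell in stunted plants by 1.98 (SE 0.10, adjusted p = 3.38e-05), or 3.95-fold.

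GH9B13, also of class B, stood at 5.46, 5.05 and 5.01 on wild-type arrays, 4.64, 4.68 and 4.73 on variegated arrays, and 4.18, 3.86 and 3.98 on stunted arrays. Again no group overlapped another. It fell in stunted plants by 1.16 (SE 0.13, adjusted p = 0.00113). GH9B7 stood at 7.20, 7.29 and 7.46 on wild-type arrays and at 6.88, 6.27 and 6.32 on stunted arrays. Stunted replicate 1 carried the same deposited value as variegated replicates 1 and 3. GH9B7 fell by 0.83 (SE 0.15, adjusted p = 0.00958).

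GH9C2, the class C member with the carbohydrate-binding domain that was bright enough to follow, stood at 7.53, 7.68 and 6.96 on wild-type arrays, 6.89, 6.71 and 6.71 on variegated arrays, and 6.94, 5.87 and 5.45 on stunted arrays. Stunted replicate 1 lay just under wild-type replicate 3, and the stunted arrays had the largest spread, at an SD of 0.77. It fell by 1.30 (SE 0.33, adjusted p = 0.0408). This call was lost in 7 of 9 single-array omissions, all but those of wild-type replicate 3 and stunted replicate 1, with an adjusted p of up to 0.139. The other 7 calls held whichever array was omitted.

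**Figure D3:**
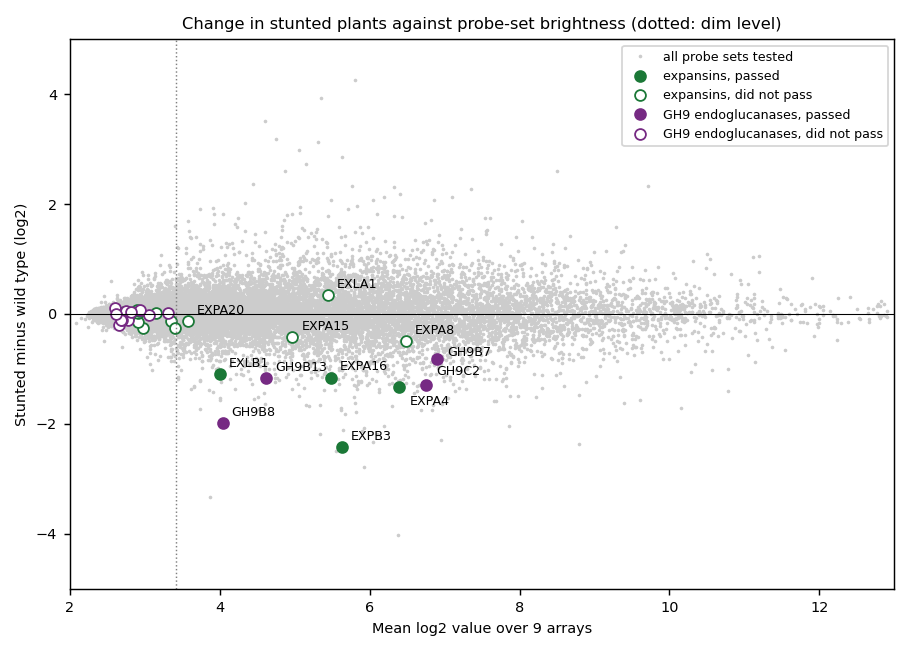
Stunted minus wild type on the log2 scale against the mean log2 value over 9 arrays, for the expansins (green) and GH9 endoglucanases (purple) over all 22746 probe sets (grey); filled points passed, and the dotted line is the dividing level of 3.42. The 21 dim members crowd near 0 at the left edge, and 11 of the 12 brighter members lie below 0.

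By family, 4 of 18 expansins and 4 of 15 endoglucanases fell in stunted plants, where 4.75% of all probe sets did. The median changes were -0.14 and -0.10, beside 0.0053 for all probe sets. Among brighter members the counts were 4 of 8 expansins (median -0.79) and 4 of 4 endoglucanases (median -1.23), where 8.9% of brighter probe sets fell. The difference between the families was not tested. The dim class A genes GH9A3, also called KOR3, and GH9A4 had changes of 0.02 and -0.21 (adjusted p = 0.904 and 0.182), and the dim GH9C3 of 0.04. By subfamily, 2 of 10 EXPA, 1 of 4 EXPB, 0 of 3 EXLA, the EXLB gene, 0 of 2 GH9A, 3 of 10 GH9B and 1 of 3 GH9C genes fell. These counts stand beside the same 4.75% of all probe sets, and subfamilies of so few genes were not compared by a test.

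Signals of control probe sets differed between arrays along with the members' values. The 25S rRNA signal was 4.25, 4.19 and 6.44 on wild-type replicates 1 to 3, 4.49, 4.97 and 8.66 on variegated arrays, and 4.502, 8.99 and 8.58 on stunted arrays. With it as a covariate 7 of the 8 falls in stunted plants passed, and GH9C2 did not (adjusted p = 0.0918). The actin 3' minus 5' control signal, which is higher in more degraded RNA, was 1.42 to 1.95 on stunted, 1.11 to 1.56 on wild-type and 0.95 to 1.45 on variegated arrays. The mean of the 12 brighter members was 5.82, 5.91 and 5.69 on wild-type replicates 1 to 3, 5.55, 5.49 and 5.32 on variegated arrays, and 5.09, 4.75 and 4.59 on stunted arrays. Replicate 3 had the highest actin signal and the lowest mean in every group. By group, the actin signal averaged 1.26 in wild-type, 1.15 in variegated and 1.65 in stunted plants. The mean of the brighter members was 5.81, 5.45 and 4.81 in turn. The part of either signal in the falls was not otherwise tested. With the actin signal as a covariate 5 of the 8 falls passed, and EXLB1, GH9B7 and GH9C2 did not (adjusted p = 0.057, 0.0517 and 0.192). Leaving out replicate 3 of every group was added once the values were known. The same 5 then passed, with EXPA8 falling and EXLA1 rising in addition.

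In variegated plants GH9B8 was the only member to pass under the limma test, and most brighter members had smaller changes than in stunted plants. GH9B8 fell by 1.16 (SE 0.10, adjusted p = 0.0033), or 2.23-fold, whichever array was omitted. This is 1 of 33 members, or 1 of 12 brighter ones, where 0.176% of all probe sets and 0.317% of brighter ones fell and 0.268% of all rose. The call of GH9B8 was lost without replicate 3 of every group (adjusted p = 0.0644). Of the 12 brighter members 9 had a change below 0, as did 46.6% of brighter probe sets. Their median change was -0.51, beside 0.017 for all brighter probe sets, and that of the 21 dim members was 0.07. In 8 of the 12 brighter members all variegated arrays lay below all wild-type arrays, as in 10.7% of brighter probe sets. In stunted plants this count was 9 of 12, as in 17.1% of brighter probe sets. Both comparisons use the same wild-type arrays.

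EXPB3 and EXLA1 had the largest differences that did not pass in variegated plants. EXPB3 had a change of -1.19 (95% interval -1.70 to -0.68, adjusted p = 0.067), close to that of GH9B8 in size but with a wider spread. It passed without stunted replicate 1 or 3 and in several other settings. EXLA1 went the other way. Its variegated arrays stood at 6.34, 6.31 and 6.19, all above the wild-type values of 4.998, 5.01 and 4.54, a difference of 1.43 (95% interval 0.73 to 2.13, 2.70-fold, adjusted p = 0.1). EXLA1 passed without stunted replicate 3 (adjusted p = 0.00741) and in several other settings. Without replicate 3 of every group it was the only member to pass (adjusted p = 0.0153). EXPA16 and EXLB1 had changes of -0.63 and -0.73 (adjusted p = 0.104 and 0.18), and EXPA16 passed without stunted replicate 1 or 3. EXPA8, EXPA15 and EXPA20 lay within 0.08 of wild type, with 95% intervals that reached down to -0.37 and up to 0.43.

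Between the RNAi phenotypes, 4 members were lower in stunted than in variegated plants and none were higher, where 0.87% of all probe sets fell and 0.87% rose. Of the 12 brighter members 3 fell, where 1.72% of brighter probe sets did. GH9B8 was lower by 0.83, a log2 change of -0.83 (SE 0.10, adjusted p = 0.00742). EXPB3 was lower by a log2 change of -1.23 (SE 0.23, adjusted p = 0.0332). For GH9B13 the change was -0.68 (SE 0.13, adjusted p = 0.0365). The dim beta-expansin EXPB1 also passed at -0.55 (SE 0.10, adjusted p = 0.0287), where 0.0176% of dim probe sets fell. Its values were 3.40, 3.42 and 3.35 on wild-type arrays, 3.61, 3.87 and 3.58 on variegated arrays, and 3.17, 3.25 and 3.00 on stunted arrays. Thus variegated plants were highest and stunted plants lowest, all within a narrow range near the dividing level, and neither difference from wild type passed (adjusted p = 0.249 and 0.152). EXPA4 and EXLA1 did not pass, with changes of -0.78 and -1.08 (adjusted p = 0.117 and 0.126). All 12 brighter members had changes below 0, from -1.23 to -0.21, as did 50.1% of brighter probe sets. Their arrays did not overlap in 7 of 12, as in 13.4% of brighter probe sets, and their median change was -0.61.

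These 4 calls were less stable than those of stunted against wild type. The count was 0 without variegated replicate 1, 1 without wild-type replicate 2, variegated replicate 2, stunted replicate 2 or stunted replicate 3, 2 without variegated replicate 3, and 8 without stunted replicate 1. It was also 0 with the actin signal as a covariate and without replicate 3 of every group. In these 3 settings with no limma call, 10, 5 and 11 of the 33 members had an unadjusted limma p under 0.05. Of all 22746 probe sets 2492, 2464 and 2682 did. Each of the 4 members kept its direction in all of these settings, and GH9B8 lost its call only without variegated replicate 1 (adjusted p = 0.0518) among the single-array omissions.

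Other genes of wall building and growth were measured through 10 lists, of which 7 had members with 28 genes in all. In stunted plants 5 of the 28 fell and 2 rose, where 4.75% of all probe sets fell and 4.91% rose. The median change over the 28 was -0.05, beside 0.0053 for all probe sets. Of the 28, 14 were brighter, and 5 of these fell and 2 rose, where 1012 of 11373 brighter probe sets fell and 1044 rose. The median change of these 14 was -0.48, beside 0.018 for all brighter probe sets. In variegated plants 1 of the 28 fell and none rose, where 0.176% of all probe sets fell and 0.268% rose. The median change of the 14 brighter genes there was -0.18, beside 0.017 for all brighter probe sets. The pectin methylesterase PME61, among the 5 falls, and the cellulose synthase-like gene CSLA01 were brighter through wild type only. Their means were 4.09 and 4.06 in wild type, above the dividing level. In variegated plants they were 3.30 and 3.06, and in stunted plants 3.07 and 3.26, all below it. The brighter class is therefore not independent of the changes counted in it. Xyloglucan endotransglucosylase/hydrolases cut and rejoin xyloglucan. In this family XTH32 fell in stunted plants by 1.18 (SE 0.22, adjusted p = 0.0104), from 8.08 ± 0.18 to 6.90 ± 0.52 (mean ± SD, n = 3). EXGT-A3 rose by 1.21 (SE 0.21, adjusted p = 0.00725), from 7.60 ± 0.16 to 8.81 ± 0.49, and 8 members did not pass. These 8 were all dim, and XTH32 and EXGT-A3 were the 2 brighter genes of the list.

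Among the cellulose synthase-like genes, CSLC04, of the class that makes the xyloglucan backbone, fell in stunted plants by 1.19 (SE 0.15, adjusted p = 0.00179). CSLD2 rose by 0.72 (SE 0.18, adjusted p = 0.0369), a call lost in 7 of the 9 omissions (adjusted p up to 0.115) and with only the 2 groups compared (0.104), and 6 members did not pass. COB, which guides oriented cellulose deposition, fell by 0.83 (SE 0.15, adjusted p = 0.0103). With the actin signal as a covariate COB and XTH32 did not pass (adjusted p = 0.0596 and 0.0542), and XTH32 and EXGT-A3 did not without replicate 3 of every group (adjusted p = 0.068 and 0.101). Of 5 pectin methylesterases, which demethylate pectin, PME61 fell by 1.02 (SE 0.11, adjusted p = 0.00107) and PMEPCRF by 0.65 (SE 0.15, adjusted p = 0.0279). The PMEPCRF call was lost in 4 single-array omissions (wild-type and stunted replicates 2 and 3), with the actin signal as a covariate (adjusted p = 0.0783), with the 25S signal as one (0.0656), with only the 2 groups compared (0.0618) and without replicate 3 of every group (0.234). PME61 also fell in variegated plants, by 0.79 (SE 0.11, adjusted p = 0.024), a call lost without any 1 wild-type or variegated array (adjusted p up to 0.117) and without replicate 3 of every group (0.167). CSLC04 alone of the 28 was lower in stunted than in variegated plants, where 0.87% of all probe sets fell. Its change was -0.88 (SE 0.15, limma adjusted p = 0.0244), a call lost in 4 omissions. It was also lost with the actin signal as a covariate (adjusted p = 0.155), with only the 2 groups compared (0.0696) and without replicate 3 of every group (0.131). The polygalacturonase ADPG1, the wall-sensing receptor kinases FER and THE1, and the growth regulator ARL did not pass in any comparison. No cellulose synthase, fasciclin-like or other arabinogalactan protein gene was listed with 1 gene and measured.

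**Figure D4:**
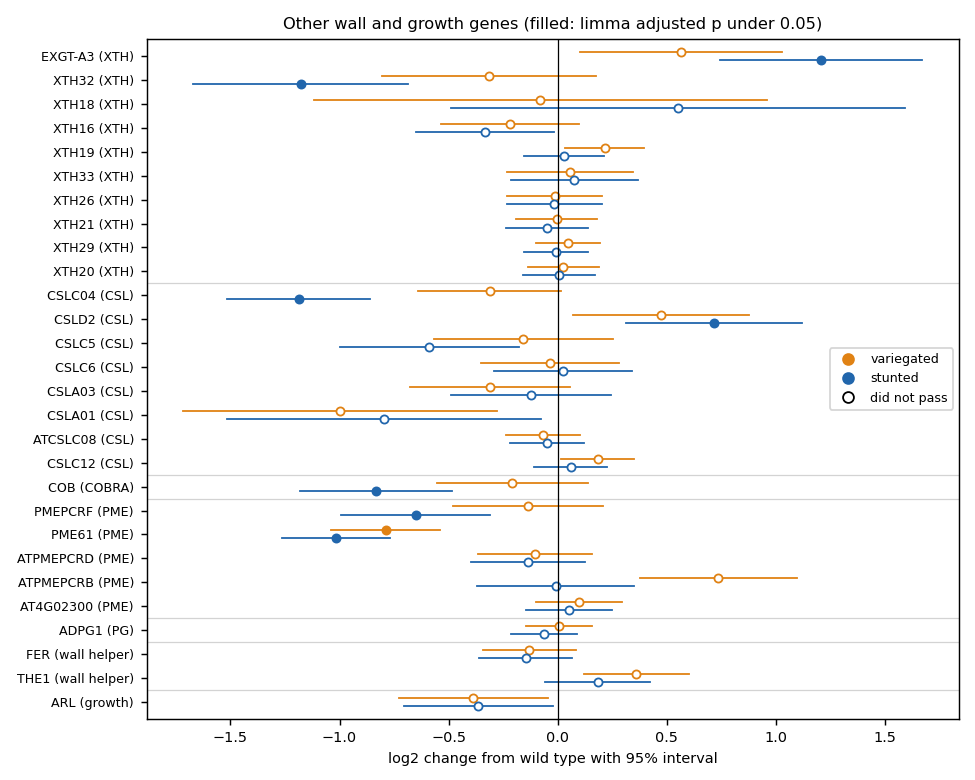
Log2 change from wild type with 95% interval for the 28 other wall and growth genes in variegated (orange) and stunted (blue) plants; filled points passed. Of the stunted changes, 5 filled points lie below 0 and 2 above, and PME61 is the 1 filled point of the variegated changes.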

How the data were processed

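The deposited log2 values, 1 column per array, were made by the authors with RMA and the affy package, per the submitters' processing notes, which name no versions. They run from 1.98 to 13.1, and how background was removed is not stated in the sources at hand. With 64 control probe sets set aside, limma 3.58.1 (R 4.3.3) was fitted to the other 22746: 1 mean per group over all 9 arrays, empirical Bayes moderation, and Benjamini-Hochberg adjustment over all probe sets within each of 3 comparisons. An adjusted p under 0.05 passed, tests were two-sided, and all adjusted p-values are limma's. Arrays carry no read depth, and 3 arrays a group limit the precision.

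The platform's annotation, which is old, gave 1 gene for 13513 probe sets (59.4%), several for 503 and none for 8730. Named were all members that passed, the 2 brightest of each subfamily, the member with the smallest p where none of a subfamily passed, those next to the dividing level, and companion genes that passed; others were named after their values were seen. The members and lists were chosen with earlier results of these data known, so their counts are read against all probe sets. Alternatives were a block for the replicate number, the 2 compared groups by themselves, an intensity trend, robust moderation, array weights, quantile normalization, median centring, a filter on dim probe sets, actin or 25S signals as covariates, averaged probe sets, other dividing levels and omission of each array. Gene order in the genome annotation was used only to find adjacent members, and sequences were not used.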

Additional observations from a re-analysis of the deposited data

Results flagged for a closer look

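Of the 33 members, 4 differed between the stunted and the variegated plants by a test of that difference itself, the limma comparison of the RNAi groups. These were EXPB3 at -1.23 on the log2 scale, EXPB1 at -0.55, GH9B13 at -0.68 and GH9B8 at -0.83. Each was lower in stunted plants, where 0.87% of all probe sets fell and 0.87% rose. All 4 calls depend on single arrays as given with the results. None of the members passed without variegated replicate 1, with the actin signal as a covariate or without replicate 3 of every group. The cause of the differences was not tested.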

How the results depend on the processing

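The count of members called in stunted plants was 8 in the reported fit, 7 to 9 over the 9 single-array omissions and 5 with the actin signal as a covariate. In variegated plants the count was 1 in the reported fit and 1 to 4 over the omissions (4 without stunted replicate 1 or 3); it was 3 with the replicate block, 4 with only the 2 groups compared, 2 with an intensity trend, 5 with array weights, 2 without the dimmest 30% of probe sets, 3 with the actin signal and 2 with the 25S rRNA signal as covariates. Between stunted and variegated plants it was 4 in the reported fit, 0 to 8 over the omissions, 2 with only the 2 groups compared, and 0 both with the actin signal and without replicate 3 of every group. The median change of all members was 0.035 in variegated plants (-0.043 to 0.049 over the omissions), and -0.51 over brighter members only. In stunted plants it was -0.12, with -0.25 without the dimmest 30% of probe sets and -1.12 over brighter members only. Between the phenotypes it was -0.15, with -0.36, -0.052 with the actin signal, and -0.61 in turn. With the dividing level at the 40th or 60th percentile, 16 or 11 members were brighter, and 8 of them fell in stunted plants either way. Of all probe sets above these levels, 7.71% and 9.88% fell.

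Over all probe sets the variegated count of 101 was 191 with the replicate block, 206 with the 2 groups alone, 349 with array weights, 186 with the actin signal, 155 with the 25S signal, 16 without replicate 3 of every group and 10 to 206 over the omissions. The stunted count of 2197 was 1321 with the 2 groups alone, 1412 with the actin signal, 710 without replicate 3 of every group and 1241 to 2955 over the omissions. The stunted against variegated count of 396 was 940 with the replicate block, 133 with the 2 groups alone, 1028 with array weights, 79 with the actin signal, 33 without replicate 3 of every group and 48 to 1404 over the omissions. Fewer arrays enter the fits that leave arrays out; otherwise the cause was not tested.

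Same-numbered replicates of different groups had deviations from their group means that correlated at 0.0045 to 0.28, with 6 of 9 pairs over 0.1, short of the rule that every pair exceed 0.1, so the fit without the block was kept. All 9 were above 0 and an array correlated best with its own number in 13 of 18 cases, a hint from the data that arrays of a number share something the labels do not give. With the replicate block EXLA1 (adjusted p = 0.0382) and EXPB3 (0.0324) passed in variegated plants in addition, 9 members passed in stunted plants, EXPA15 in addition, and 6 between the phenotypes, EXLA1 and EXPA4 in addition. Averaging a gene's probe sets leaves the members' values as they are. The values near the floor limit what can be said of the 21 dim members.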

Other observations

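Members that neighbour each other in the genome annotation of assembly TAIR10.1 formed 4 adjacent pairs of 7 genes. EXLA1 and EXLA3 are adjacent, and EXLA1 had a brighter probe set with a variegated minus wild type difference of 1.43, while EXLA3 was dim with 0.03. The chain GH9B16, GH9B17 and GH9B18 and the pair GH9B11 and GH9B12 were dim throughout, with stunted minus wild type changes of -0.11 to 0.12.

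Identical deposited values on several arrays were common. At least 2 of the 3 arrays of a group shared a value in 8.45% of probe sets in wild type, 11.2% in variegated and 8.42% in stunted plants. Among the members this held for 1, 6 and 7 genes, and all 3 arrays were identical for EXPA16 and GH9B6 in variegated and for EXPB2 in stunted plants.

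EXPA9, a dim alpha-expansin, was the nearest to passing of the dim members in stunted plants, at -0.25 (SE 0.07, adjusted p = 0.0547), and passed with an intensity trend, with array weights and with median centring. All its wild-type arrays (3.07, 3.24 and 3.15) lay above its variegated arrays (2.93, 2.81 and 2.93) and its stunted arrays (2.93, 2.89 and 2.89). This gene was chosen after its values were seen.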
